A study of Caenorhabditis elegans with 5 samples.

Results

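Neuropeptides and insulin-like peptides are short signals that *C. elegans* cells cut out of longer precursor proteins and release from dense-core vesicles. The *flp* genes encode FMRFamide-like peptides, the *ins* genes and *daf-28* encode peptides related to insulin that act on the receptor DAF-2, and the *nlp* genes encode the remaining, mixed peptides. Most are made in neurons, but some come from the gut or the epidermis, and the genes numbered *nlp-24* to *nlp-34* include antimicrobial peptides that the epidermis makes against fungi. Genes were taken by symbol, as those named *flp*, *nlp*, *ins* or *ntc* together with *pdf-1*, *pdf-2*, *daf-7* and *daf-28*. The table listed 145 of them among 25393 genes. One, *daf-7*, encodes a TGF-β ligand that controls dauer entry, and is neither a neuropeptide nor an insulin-like peptide.

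RNA was measured by Cel-seq2, a method that tags mRNAs at their 3′ ends, in pools of whole N2 wild-type animals fed *E. coli* HT115. There were 3 libraries of animals grown on 400 µM tamoxifen and 2 of control animals grown on 400 µM citrate. All libraries are labelled L4 stage and 48 h, with animals synchronised by L1 arrest after growth on *E. coli* OP50, while the study's text states that tamoxifen animals were collected later than controls because they developed more slowly. Treatment and collection time therefore cannot be told apart. The labels give separate replicates, and the study's methods call them biological, 2 to 3 in number, without describing how they were grown.

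Values are tag counts scaled to a common library total (CPM), each a whole number of tags. Libraries held between 1782371 and 38276144 tags, a 21.5-fold range, so that 5 CPM stands for 8.91 tags in tamoxifen replicate 3 and 191 in tamoxifen replicate 2. Tags are counted at 3′ ends, so CPM was not divided by gene length. Markers of other cells moved between the groups. The 10 female germline markers summed to 8297 to 9105 CPM in tamoxifen and to 3155 and 5250 CPM in citrate. Of the 10 tested, 6 passed the threshold used below, all higher (60%, against 4.66% of all genes tested). The 10 epidermal markers summed to 280 to 650 CPM in tamoxifen and to 1687 and 1460 CPM in citrate. Most of the citrate sums came from *col-12*, with 179 to 383 CPM in tamoxifen and 1119 and 1128 CPM in citrate. Of 6 tested, *col-12* and *col-10* passed the threshold, both lower. The groups overlapped in 3 of the 6. Estimates were below 0 in 5, and above 0 in *sqt-3* (log2 fold change 0.44). *elt-1*, below the level tested, had 3.13, 3.42 and 5.05 CPM in tamoxifen, above 1.59 and 2.69 CPM in citrate. The part these cell types play in the results on peptide genes was not tested. In whole animals, fewer cells of a type and less RNA per cell cannot be told apart.

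A gene was tested if it reached 5 CPM in at least 2 of the 5 libraries. Of the 145 peptide genes, 90 did so, comprising 28 of 31 *flp* genes, 10 of the 11 genes *nlp-24* to *nlp-34*, 36 of 60 other *nlp* genes, 15 of 39 insulin-like genes (*ins* and *daf-28*) and *pdf-1*. Just inside this limit, *nlp-51* had 6.83, 3.29 and 2.81 CPM in tamoxifen, against 5.45 and 4.31 CPM in citrate. Just outside it, *flp-32* had 2.28, 3.42 and 1.68 CPM in tamoxifen, against 4.18 and 5.39 CPM in citrate. Of the 90 genes, 6 reached 5 CPM in citrate libraries only and 1, *ins-7*, in tamoxifen libraries only. The filter helped these 7 to differ, so counts over the 90 do not stand for all peptide genes.

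The 145 genes together held less of the library in tamoxifen. They summed to 4084, 3070 and 4173 CPM in tamoxifen replicates 1, 2 and 3, and to 8258 and 6036 CPM in citrate replicates 1 and 2. The groups did not overlap, and the citrate mean was 1.89 times the tamoxifen mean. Each family showed the same order. The *flp* genes summed to 709 ± 154 CPM in tamoxifen (SD, n = 3) and 1176 ± 111 in citrate (SD, n = 2), and the insulin-like genes to 167 ± 37.1 CPM in tamoxifen and 288 ± 33.6 in citrate. The genes *nlp-24* to *nlp-34* summed to 1386 ± 208 CPM in tamoxifen and 2979 ± 681 in citrate, and the other *nlp* genes to 1465 ± 215 CPM in tamoxifen and 2620 ± 736 in citrate. A few genes dominated these sums. The genes *nlp-24*, *nlp-27*, *nlp-28*, *nlp-33*, *nlp-36* and *nlp-40* made up 46.5% to 56.0% of all peptide tags in the tamoxifen libraries, and 55.4% and 55.3% in the citrate libraries.

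**Figure D1:**
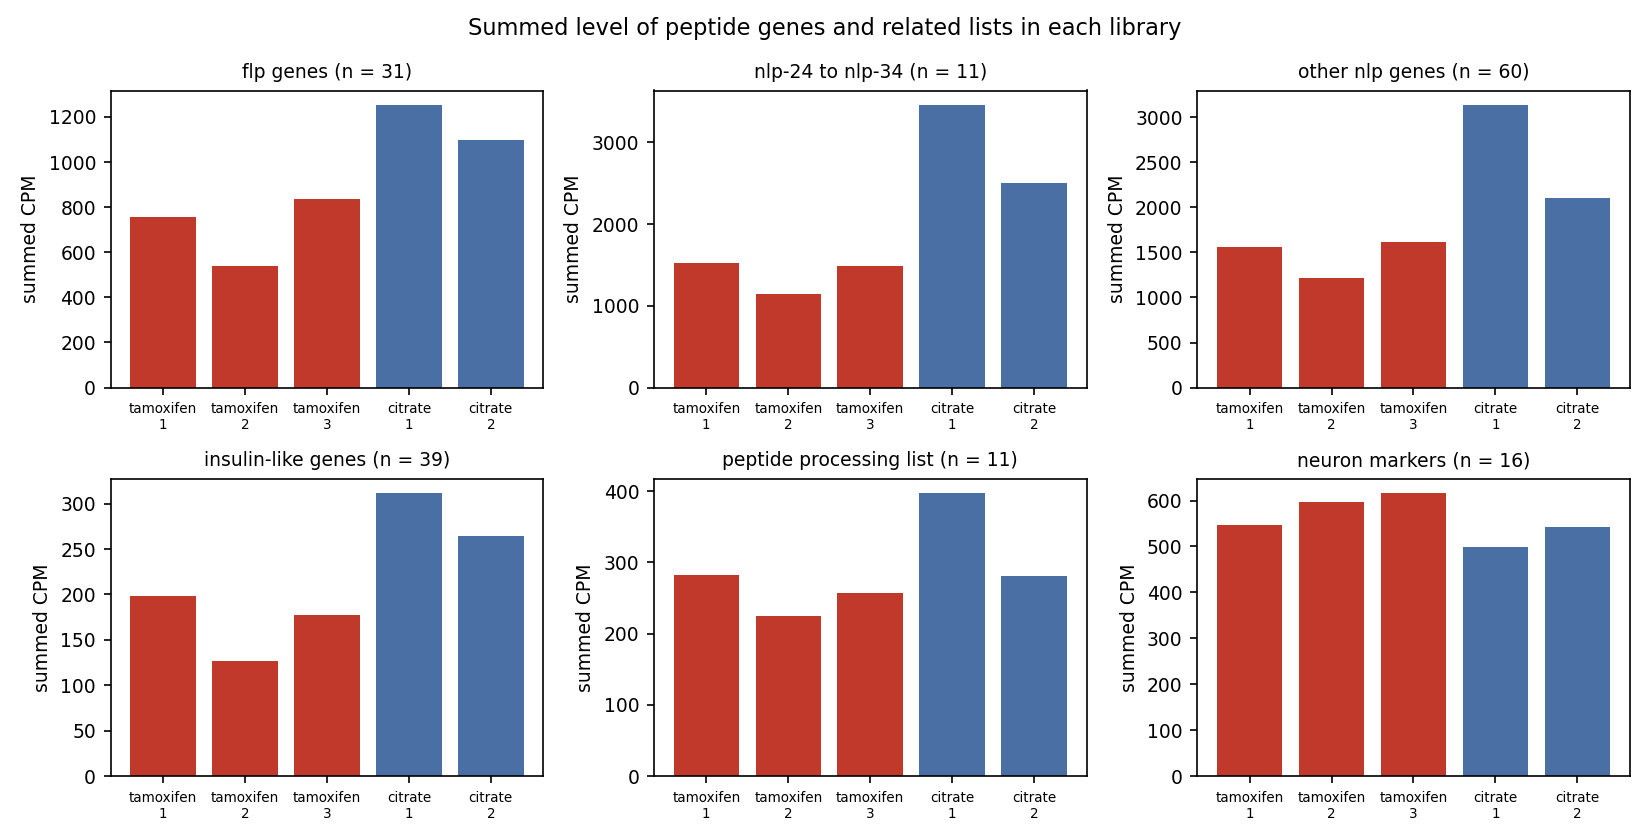
Summed CPM per library (bars) of the 4 peptide gene families, the peptide processing list and the neuron markers, with tamoxifen libraries in red and citrate libraries in blue. All 4 families are lower in each tamoxifen library than in either citrate library, while the neuron markers lie between 546 and 616 CPM in tamoxifen and between 498 and 542 CPM in citrate. *snb-1*, *unc-11* and *maco-1*, each with an estimate above 0, dominate this sum. Without them, a choice made after seeing the data, it is lower in tamoxifen.

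The level of individual genes spanned a wide range. In citrate, *nlp-24* stood first, with 1671 and 1182 CPM, above *nlp-33* with 858 and 512 CPM and *nlp-36* with 851 and 562 CPM. In tamoxifen the 4 most abundant genes could not be ordered beyond their spread, with 416 ± 92.6 CPM for *nlp-24*, 394 ± 143 for *nlp-33*, 356 ± 39.8 for *nlp-40* and 340 ± 63.8 for *nlp-36* (SD, n = 3). *nlp-40* encodes a peptide that the intestine releases to time the defecation motor programme. The most abundant *flp* genes were *flp-10*, *flp-28* and *flp-33*, and the most abundant *ins* genes *ins-17*, *ins-27* and *ins-18*. The median tested peptide gene had 12.7 CPM in tamoxifen and 20.1 in citrate, against 26.6 and 21.8 for all genes tested.

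Changes were tested by limma on log2(CPM + 1) over all 8325 genes that reached the same level, with Benjamini-Hochberg adjustment and genes were called where the adjusted p was below 0.01 and the change exceeded 2-fold. Fold changes on this scale understate those of low genes. Of the 90 peptide genes, 6 passed as lower in tamoxifen (6.67%, where 2.76% of all genes tested passed as lower) and 0 as higher (where 4.66% of all genes passed). At an unadjusted p under 0.05, 35 were lower and 2 higher, where 14.9% of all genes were lower and 29.7% higher. edgeR called 16 lower (17.8%, against 5.12% of all genes) and DESeq2 27 (30%, against 9.37%), both on recovered tags, and both called 0 higher (1.78% of all genes by edgeR and 5.51% by DESeq2). At an adjusted p under 0.05 limma called 19 lower (21.1%, against 8.14% of all genes) and 1 higher (1.11%, against 16% of all genes). The 16 and the 27 each included the 6. The median log2 fold change of the 90 genes was -0.69, with a range of -2.12 to 1.16, against 0.24 for all genes tested. Without tamoxifen replicate 2 it was -0.43, against 0.23 for all genes. With all libraries, median-of-ratios scaling brought the overall median to 0.07, and relative to it the peptide genes stood at -0.93 under both scalings. In 42 of the 90 genes (46.7%), each tamoxifen value lay below both citrate values, which held for 20.8% of all genes tested. The opposite held for 3 peptide genes, *ins-7*, *ins-23* and *nlp-31*, against 39.4% of all genes. *ins-23* is named here after its value was seen.

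**Figure D2:**
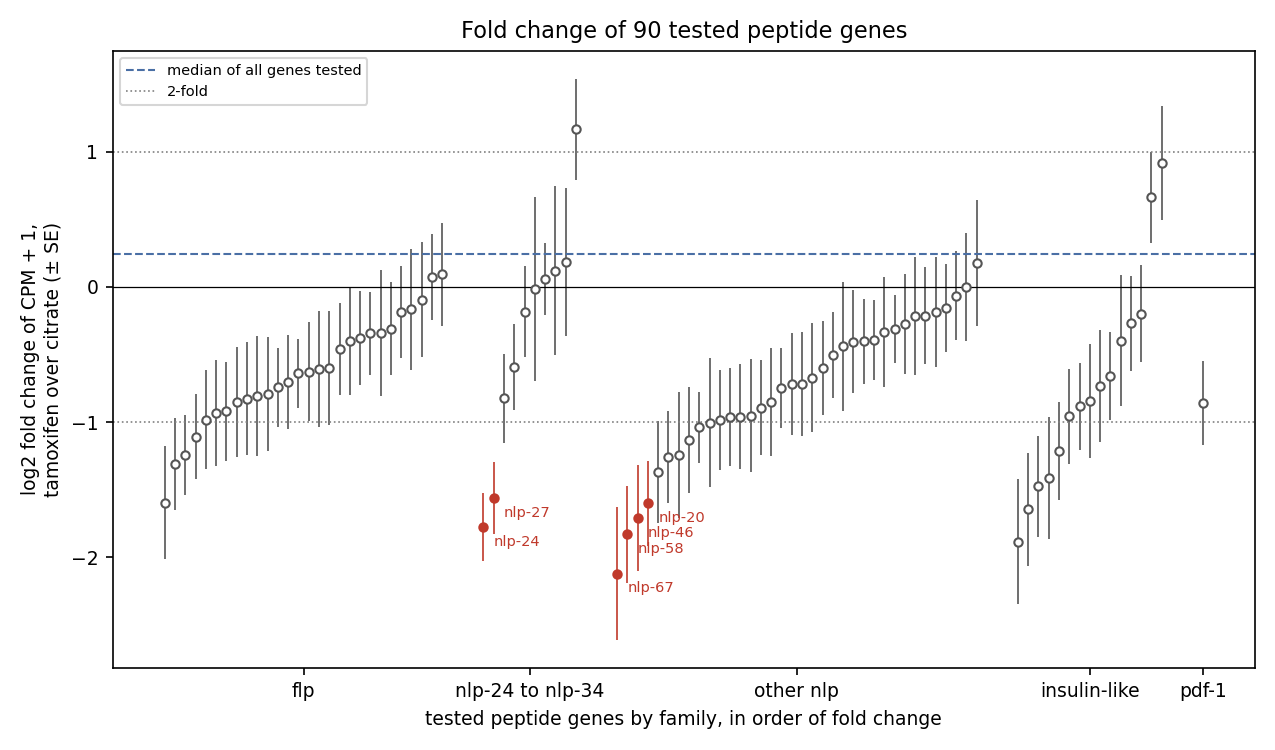
Log2 fold change of CPM + 1, tamoxifen over citrate, of the 90 tested peptide genes by family (points, bars are standard errors), with the 6 genes past the threshold in red. The dashed line is the median of all genes tested (0.24), and 81 of the 90 points lie below 0.

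The count of 6 rested on several libraries. It was 2 without tamoxifen replicate 1, 3 without tamoxifen replicate 2, 2 without tamoxifen replicate 3 and 0 without citrate replicate 1, and of the 6 only *nlp-24* passed in each of the 3 fits without a tamoxifen library. Without citrate replicate 2 it was 8. The controls also differed between themselves in the same direction. Citrate replicate 2 lay below citrate replicate 1 for 64 of the 90 peptide genes (71.1%), against 40.3% of all genes tested, with a median log2 difference of -0.30 over the peptide genes and 0.13 over all genes. Against citrate replicate 2 alone, 75 of the 90 genes had a lower tamoxifen mean, with a median log2 difference of -0.52, against 40% of all genes and a median of 0.19. Of the 26 genes for which citrate replicate 2 was the higher control, 15 had all tamoxifen values below both citrate values, against 11.7% of all genes with that order of controls. Among tamoxifen libraries, replicate 2 had the lowest value of the 3 for 66 of the 90 genes (73.3%), against 40.6% of all genes tested.

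**Figure D3:**
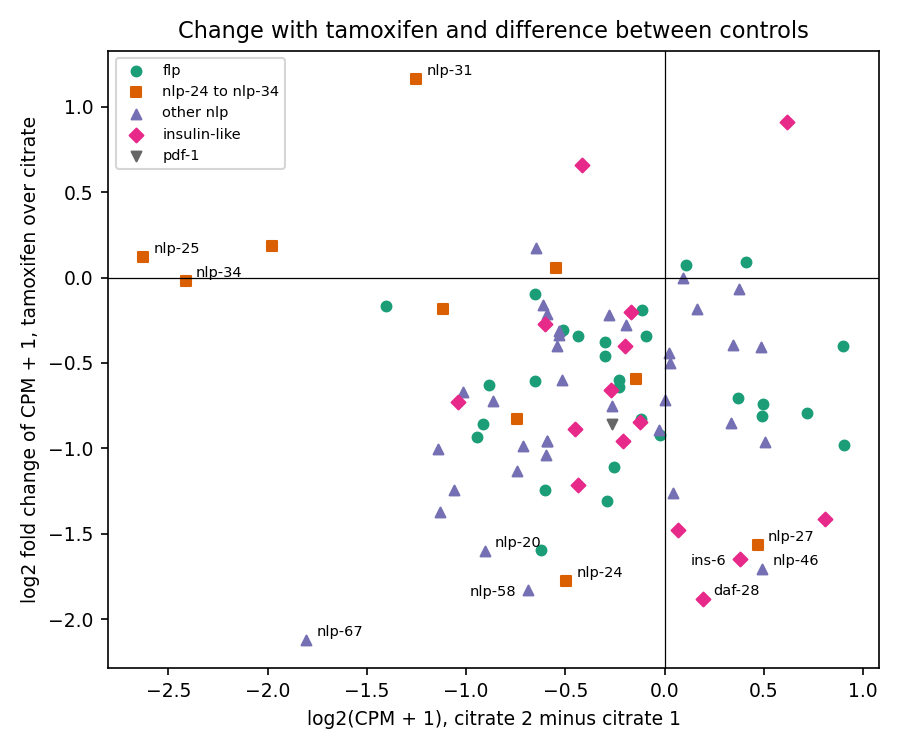
Log2 fold change of CPM + 1, tamoxifen over citrate (vertical axis), against the log2 difference of citrate replicate 2 minus citrate replicate 1 (horizontal axis) for the 90 tested peptide genes, marked by family. Most points lie in the lower left, where citrate replicate 2 is also below replicate 1, while *nlp-27*, *nlp-46*, *ins-6* and *daf-28* lie to the right of 0.

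The 6 genes that fell were all of the *nlp* family. *nlp-24* (chromosome V, 11616376 to 11616828, plus strand, in the Ensembl annotation of WBcel235) belongs to the group of antimicrobial-type peptides. It had 520, 387 and 342 CPM in tamoxifen and 1671 and 1182 CPM in citrate. The groups were far apart, and the citrate mean was 3.43 times the tamoxifen mean. Its log2 fold change was -1.78 (standard error, SE, 0.25, adjusted p = 0.0014 by limma). One exon of *nlp-24* overlaps *glb-15* on the other strand, which had 0.212 CPM or less in each library. The same group holds *nlp-27* (V, 3989378 to 3989770, plus strand), with 169, 122 and 150 CPM in tamoxifen and 367 and 508 CPM in citrate. Here citrate replicate 2 was the higher control, so the fall of *nlp-27* ran against the difference between controls. Its log2 fold change was -1.56 (SE 0.27, adjusted p = 0.00334 by limma).

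The other 4 encode predicted neuropeptide-like precursors. *nlp-20* (IV, 7642054 to 7643071, minus strand) had 130, 82.1 and 109 CPM in tamoxifen and 440 and 234 CPM in citrate, a log2 fold change of -1.60 (SE 0.31, adjusted p = 0.00541 by limma). For *nlp-58* (V, 9946321 to 9948940, minus strand) the values were 12.8, 13 and 24.7 CPM in tamoxifen and 75.9 and 46.8 CPM in citrate, with a log2 fold change of -1.83 (SE 0.36, adjusted p = 0.00541 by limma). Both were lower in citrate replicate 2 than in replicate 1, yet every tamoxifen value lay below both controls. *nlp-67* (X, 16184369 to 16185722, plus strand) had 3.13, 6.04 and 7.85 CPM in tamoxifen and 50.8 and 13.8 CPM in citrate. Its controls differed by -1.81 on the log2 scale, nearly as much as its log2 fold change of -2.12 (SE 0.49, adjusted p = 0.00957 by limma). Against citrate replicate 2 alone the log2 difference of *nlp-67* was -1.22. *nlp-46* (V, 12505059 to 12506285, minus strand) had 10, 92 and 5 tags in tamoxifen replicates 1, 2 and 3, which is 2.85, 2.40 and 2.81 CPM, and 9.16 and 13.3 CPM in citrate. Its tamoxifen libraries were all below 5 CPM, so it was tested through its citrate values alone. The log2 fold change of *nlp-46* was -1.71 (SE 0.39, adjusted p = 0.00938 by limma). One of its exons overlaps *T28H10.1* on the other strand, with 4.27, 1.75 and 0.561 CPM in tamoxifen and 1.22 and 1.29 CPM in citrate, and whether counting used strand is not given in the sources used here.

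**Figure D4:**
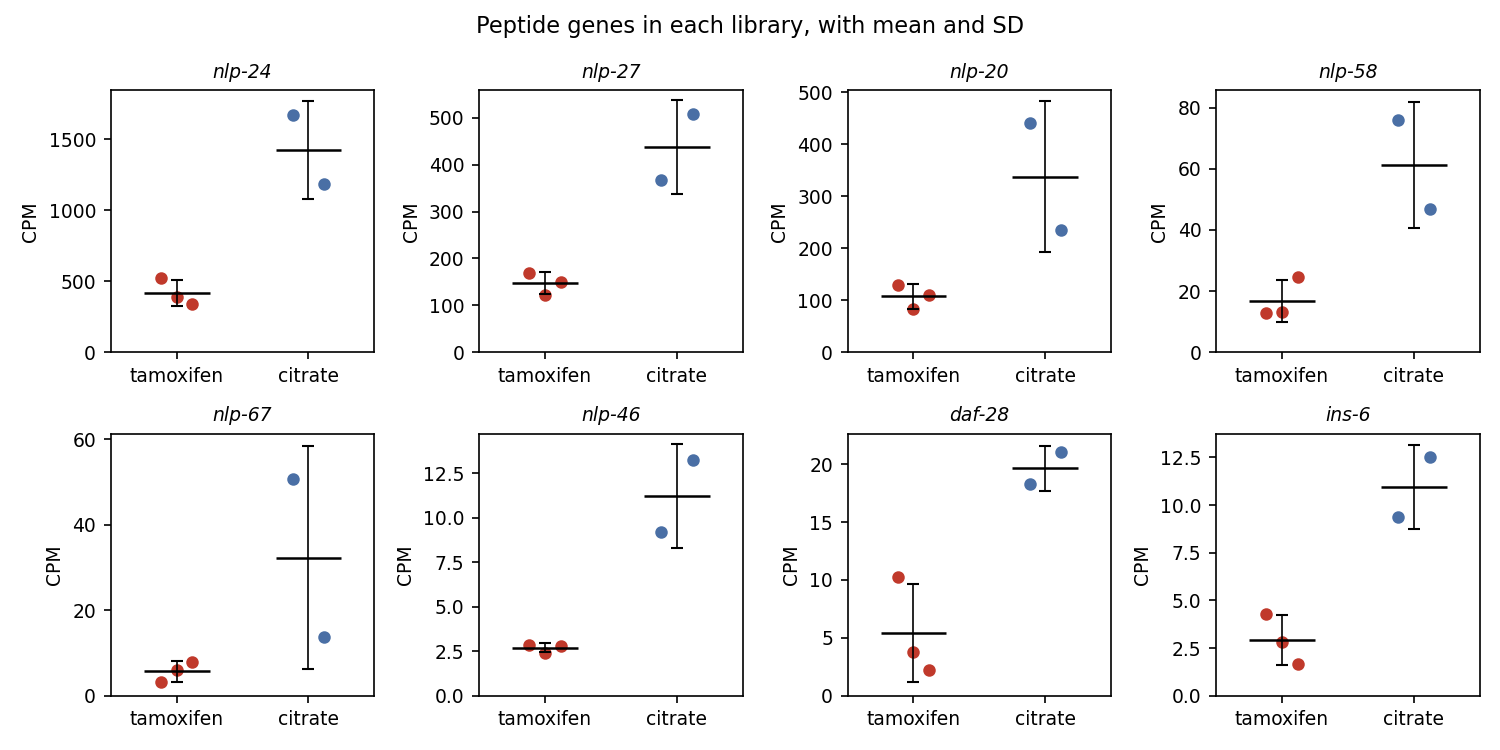
CPM in each library (points) of the 6 genes that fell and of *daf-28* and *ins-6*, which did not pass the threshold, with the group mean (line) and SD (bar), tamoxifen in red on the left and citrate in blue on the right. In all 8 genes each tamoxifen value lies below both citrate values.

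The group *nlp-24* to *nlp-34* did not move as one. Of its 10 tested genes, 2 passed as lower and 0 as higher, where 2.76% and 4.66% of all genes tested did. The median log2 fold change was -0.10, against 0.24 for all genes, and 9 of the 10 lay below that overall median. A run of 6 of these genes, *nlp-34*, *nlp-31*, *nlp-30*, *nlp-29*, *nlp-28* and *nlp-27*, lies within V, 3978825 to 3989770. They are related neighbours, and tags of one could have been given to another in counting. *nlp-27*, at one end, fell. *nlp-28*, next to it and more abundant in tamoxifen, had 221, 287 and 273 CPM in tamoxifen and 301 and 206 CPM in citrate. These groups overlapped, with a log2 fold change of 0.06 (SE 0.26), which was -0.13 after median-of-ratios scaling. *nlp-29*, the member best known for its induction by fungal infection and wounding, had 54.7, 51.9 and 51.6 CPM in tamoxifen, between its citrate values of 88.9 and 40.4 CPM.

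*nlp-31* was the one member of this run above both controls, with 30.7, 32.6 and 43.8 CPM in tamoxifen and 24 and 9.49 CPM in citrate. Its log2 fold change of 1.16 (SE 0.37, adjusted p = 0.0329 by limma) did not pass the threshold. *nlp-30* and *nlp-34* had controls far apart from each other. *nlp-30* had 7.40, 4.21 and 13.5 CPM in tamoxifen and 14 and 2.80 CPM in citrate. *nlp-34* had 17.1, 6.53 and 45.4 CPM in tamoxifen and 42.2 and 7.11 CPM in citrate. In both, citrate replicate 1 was several times citrate replicate 2 and tamoxifen replicate 2 was the lowest tamoxifen library.

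**Figure D5:**
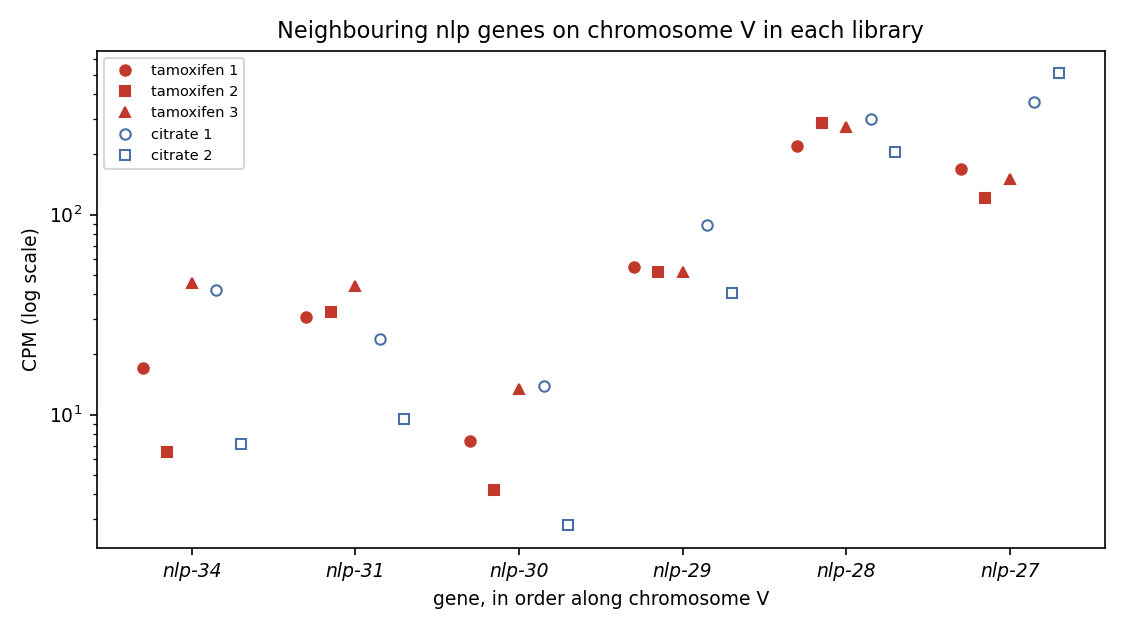
CPM (log scale) in each library of the 6 neighbouring *nlp* genes in their order along chromosome V, with tamoxifen libraries as filled red symbols and citrate libraries as open blue symbols. The groups separate at *nlp-27* (tamoxifen below) and *nlp-31* (tamoxifen above) and overlap at the other 4 genes.

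The rest of the group lies elsewhere. *nlp-25* (45.8, 14.3 and 47.7 CPM in tamoxifen, 73.7 and 11.1 CPM in citrate) had the largest gap between controls of all tested peptide genes, at -2.63 on the log2 scale. *nlp-26* had 14.2, 10.8 and 12.9 CPM in tamoxifen and 20.5 and 18.4 CPM in citrate, a log2 fold change of -0.59 (adjusted p = 0.162 by limma). *nlp-33* had 449, 232 and 500 CPM in tamoxifen and 858 and 512 CPM in citrate, groups that just missed each other, with a log2 fold change of -0.83 (adjusted p = 0.0683 by limma). *nlp-32* was below the level tested, with 3, 0 and 2 tags in tamoxifen and 2 and 0 tags in citrate. The caenacins, which are encoded by the *cnc* genes and are a second family of epidermal antimicrobial peptides, were also divided. Of 10 listed, 5 were tested, and 1 passed in each direction (against 2.76% of all genes as lower and 4.66% as higher). *cnc-8* fell to 141, 136 and 138 CPM in tamoxifen, against 493 and 322 CPM in citrate (log2 fold change -1.52, adjusted p = 0.00353 by limma). *cnc-3* had 6.83, 10.2 and 9.54 CPM in tamoxifen, above 1.80 and 1.94 CPM in citrate (log2 fold change 1.76, adjusted p = 0.00847 by limma). Both citrate libraries of *cnc-3* were below 5 CPM, so the filter admitted it through the group where it was high.

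Among the 36 other *nlp* genes tested, 4 passed as lower and 0 as higher, with 15 lower and 0 higher at an unadjusted p below 0.05 (14.9% and 29.7% of all genes), and the median log2 fold change was -0.72. edgeR called 7 of them lower (against 5.12% of all genes) and DESeq2 11 (against 9.37%). Both called 0 higher (against 1.78% of all genes by edgeR and 5.51% by DESeq2). In 18 of the 36 the groups did not overlap, with tamoxifen below, which held for 20.8% of all genes tested. The 18 include *nlp-46*, *nlp-62*, *nlp-11* and *nlp-50*, which reached 5 CPM in citrate libraries only. *nlp-36*, among the most abundant of all, had 413, 311 and 295 CPM in tamoxifen and 851 and 562 CPM in citrate, a log2 fold change of -1.04 (SE 0.26, adjusted p = 0.013 by limma), which was over 2-fold but missed the p threshold. One exon of it overlaps *dars-1* on the other strand, and *dars-1* had 270, 288 and 304 CPM in tamoxifen and 181 and 221 CPM in citrate, the opposite order. *nlp-43* had 34.7, 21.7 and 42.1 CPM in tamoxifen and 124 and 56.2 CPM in citrate (log2 fold change -1.37, adjusted p = 0.0181 by limma). *nlp-9* had close controls, at 22.2 and 22.9 CPM, with 12.2, 7.63 and 7.29 CPM in tamoxifen (log2 fold change -1.26, adjusted p = 0.0169 by limma). For *nlp-62*, with 4.84, 4.65 and 3.37 CPM in tamoxifen and 13.9 and 7.87 CPM in citrate, the log2 fold change was -1.13 (adjusted p = 0.0432 by limma). It was tested through its citrate values alone. *nlp-12*, a cholecystokinin-like peptide that acts on locomotion, had 42.7, 19.2 and 73.5 CPM in tamoxifen and 137 and 65.1 CPM in citrate, so that the groups overlapped (log2 fold change -1.24, adjusted p = 0.0551 by limma). They also overlapped for *nlp-17* (log2 fold change -1.01, adjusted p = 0.118 by limma), one exon of which overlaps *seld-1* on the other strand. The intestinal *nlp-40* had 310, 380 and 378 CPM in tamoxifen and 530 and 367 CPM in citrate, a log2 fold change of -0.31 (adjusted p = 0.345 by limma).

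Of the 28 *flp* genes tested, 0 passed in either direction by limma, with 9 lower and 0 higher at an unadjusted p under 0.05 (14.9% and 29.7% over all genes). edgeR called 4 lower (14.3%, against 5.12% of all genes), *flp-5*, *flp-8*, *flp-10* and *flp-34*, and DESeq2 6 (21.4%, against 9.37%). By either tool 0 were higher (against 1.78% of all genes by edgeR and 5.51% by DESeq2). The median log2 fold change of the 28 was -0.63, with 26 of the 28 estimates below 0, against 39.9% of all genes tested. The least far from the limit was *flp-10*, whose peptides act with those of *flp-17* on the receptor EGL-6 to inhibit egg laying. *flp-10* had 61.5, 65.6 and 85.8 CPM in tamoxifen and 207 and 136 CPM in citrate. The groups did not overlap, and its log2 fold change was -1.24 (SE 0.30, adjusted p = 0.0106 by limma). *flp-34* had 9.96, 3.61 and 4.49 CPM in tamoxifen and 23.5 and 14.9 CPM in citrate (log2 fold change -1.60, adjusted p = 0.0152 by limma). *flp-5* had 12.8, 7.65 and 12.9 CPM in tamoxifen and 31.5 and 25.5 CPM in citrate (log2 fold change -1.31, adjusted p = 0.0144 by limma), and *flp-8* had 35.6, 21.2 and 30.3 CPM in tamoxifen and 68.4 and 57.0 CPM in citrate (log2 fold change -1.11, adjusted p = 0.0201 by limma). In all 4 genes each tamoxifen value lay below both controls.

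The 2 other abundant members of this family changed less. *flp-28* had 139, 125 and 128 CPM in tamoxifen and 221 and 188 CPM in citrate, a log2 fold change of -0.64 (adjusted p = 0.0704 by limma). *flp-33* had 116, 75.5 and 102 CPM in tamoxifen and 136 and 192 CPM in citrate, a log2 fold change of -0.74 (adjusted p = 0.0669 by limma). The *flp* estimates ended at 0.09, and the upper quartile was -0.34. In 24 of the 28 genes tamoxifen replicate 2, the most deeply sequenced library, had the lowest value of all 5 libraries, against 19% of all genes tested.

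Of the 15 insulin-like genes tested, 0 passed in either direction by limma, with 7 lower and 1 higher at an unadjusted p under 0.05 (over all genes 14.9% and 29.7%). edgeR called 3 lower (against 5.12% of all genes) and DESeq2 7 (against 9.37%). Neither called any higher (against 1.78% of all genes by edgeR and 5.51% by DESeq2). The median log2 fold change was -0.85. In 9 of the 15 every tamoxifen value lay below both controls, against 20.8% of all genes tested. *daf-28*, *ins-6* and *ins-4*, agonists of DAF-2 made by sensory neurons that hold back dauer arrest, were among these 9. So was *ins-1* (log2 fold change -0.96), while the groups overlapped for *ins-3* (-0.40) and *ins-5* (-0.20). A difference between agonists and the other members of the family was not tested. Of the 9, *ins-6* and *ins-24* reached 5 CPM in citrate libraries only, so the filter admitted them through the group where they were high. *daf-28* had 10.2, 3.76 and 2.24 CPM in tamoxifen and 18.3 and 21 CPM in citrate. Its log2 fold change was -1.88 (SE 0.46, adjusted p = 0.0122 by limma), with only 4 tags in tamoxifen replicate 3, and it passed without tamoxifen replicate 1. *ins-6* had 4.27, 2.82 and 1.68 CPM in tamoxifen and 9.37 and 12.5 CPM in citrate (log2 fold change -1.65, adjusted p = 0.0138 by limma). *ins-4* had 6.55, 4.44 and 5.05 CPM in tamoxifen and 15.9 and 11.5 CPM in citrate (log2 fold change -1.21, adjusted p = 0.0249 by limma). In *ins-6* and *daf-28* the higher control was citrate replicate 2, against the direction of their tamoxifen values.

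A cluster of 7 *ins* genes lies on chromosome I, of which 5 were tested. In 4 of the 5 every tamoxifen value lay below both controls, against 20.8% of all genes tested, though the filter admitted *ins-24*, one of the 4, through its citrate values alone. *ins-30* had 7.69, 3.79 and 4.49 CPM in tamoxifen and 15.6 and 16.4 CPM in citrate (log2 fold change -1.48, adjusted p = 0.0137 by limma). *ins-24* had 4.27, 1.49 and 2.81 CPM in tamoxifen and 6.41 and 12 CPM in citrate (log2 fold change -1.41, adjusted p = 0.0322 by limma). *ins-27* had 24.5, 21.6 and 34.8 CPM in tamoxifen and 58.3 and 42.3 CPM in citrate (log2 fold change -0.88, adjusted p = 0.0497 by limma). These genes are neighbours and related, and could have shared tags, so the 4 need not be separate observations. The log2 fold change of *ins-28* was -0.85, and that of *ins-29*, the one of the 5 whose groups overlapped, was -0.27.

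The exceptions were *ins-7* and *ins-23*. *ins-7*, an agonist that the intestine expresses, had 4.84, 5.02 and 7.85 CPM in tamoxifen and 1.91 and 3.45 CPM in citrate. Its log2 fold change was 0.91 (SE 0.42, adjusted p = 0.107 by limma), and it was named after its value was seen. *ins-17*, the most abundant of the family, had 41.8, 23.3 and 38.2 CPM in tamoxifen and 58.7 and 48.5 CPM in citrate (log2 fold change -0.66, adjusted p = 0.129 by limma), with groups that did not overlap. *ins-18*, an antagonist of DAF-2, had 15.7, 7 and 15.7 CPM in tamoxifen and 30.1 and 14.1 CPM in citrate, and its groups did overlap (log2 fold change -0.73, adjusted p = 0.184 by limma).

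Of the remaining genes, *pdf-1* encodes a pigment-dispersing factor that promotes roaming. It had 36.4, 35.7 and 57.8 CPM in tamoxifen and 84.9 and 70.5 CPM in citrate, groups that did not overlap (log2 fold change -0.86, SE 0.31, adjusted p = 0.0498 by limma). Its relative *pdf-2* was below the level tested, with 3.70, 2.59 and 4.49 CPM in tamoxifen and 3.34 and 3.02 CPM in citrate. *daf-7* had 4, 31 and 0 tags in tamoxifen, which is 1.14, 0.810 and 0 CPM, and 1.91 and 2.59 CPM in citrate. The 0 tags in tamoxifen replicate 3 allow up to 1.68 CPM, by counting error alone. *ntc-1*, which encodes the oxytocin- and vasopressin-like nematocin, had 2, 12 and 0 tags in tamoxifen and 19 and 7 tags in citrate, too few to be tested. Of the 55 peptide genes below the level tested, 4 had 0 tags in every library, and the 55 together summed to 39.6 to 55.2 CPM in tamoxifen and to 88.6 and 73.2 CPM in citrate.

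The machinery that makes, stores and receives these peptides was then set beside them. Of the 8 tested genes for peptide processing, 0 passed by limma, edgeR or DESeq2, 0 had an unadjusted p below 0.05, and the median log2 fold change was -0.35. The proprotein convertase gene *egl-3* had 51.0, 38.0 and 59.5 CPM in tamoxifen and 66.1 and 60.1 CPM in citrate (log2 fold change -0.37, adjusted p = 0.354 by limma). The carboxypeptidase gene *egl-21*, which trims the cleaved peptides, had 25.1, 16.1 and 29.7 CPM in tamoxifen and 22.2 and 24.7 CPM in citrate (log2 fold change -0.03, adjusted p = 0.952 by limma). *sbt-1*, the chaperone of the convertase, had 57.8, 15.6 and 33.1 CPM in tamoxifen and 57.8 and 40.2 CPM in citrate (log2 fold change -0.61, adjusted p = 0.283 by limma). Of 5 tested genes for dense-core vesicles, 0 passed by limma, edgeR or DESeq2, 0 had an unadjusted p below 0.05, and the median log2 fold change was 0.08. The vesicle membrane protein gene *ida-1* had 7.69, 2.85 and 5.61 CPM in tamoxifen and 4.55 and 4.85 CPM in citrate. *unc-31*, needed for vesicle release, was below the level tested, with 2.85, 1.80 and 0.561 CPM in tamoxifen and 3.50 and 3.23 CPM in citrate.

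Peptide receptors were mostly too low to test. Of 107 listed, 7 were tested and 0 passed by limma, edgeR or DESeq2, and 1 was higher at an unadjusted p below 0.05 (against 29.7% of all genes). The median log2 fold change was 0.44. The insulin receptor gene *daf-2*, the target of the *ins* peptides, had 74.9, 52.5 and 43.2 CPM in tamoxifen and 49.7 and 51.7 CPM in citrate. Of the 5 tested genes for neprilysin peptidases, which break peptides down outside cells, 0 passed by limma or edgeR and 1 by DESeq2 as lower (against 9.37% of all genes). At an unadjusted p below 0.05, 1 was lower (against 14.9%), and their median log2 fold change was -0.25. Of 4 tested molting genes 0 passed by limma, edgeR or DESeq2, and 1 was higher at an unadjusted p below 0.05 (against 29.7% of all genes). Their median log2 fold change was -0.03.

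Neuron markers were mixed. The 16 markers summed to 546, 596 and 616 CPM in tamoxifen and to 498 and 542 CPM in citrate. Most of this sum came from 3 genes, *snb-1* (synaptobrevin), *unc-11* and *maco-1*, with log2 fold changes of 0.24, 0.15 and 0.71. Of the 9 tested markers, 4 had estimates above 0, these 3 and *unc-119*, and 5 below 0. Without *snb-1* alone the sum was 212, 251 and 232 CPM in tamoxifen and 204 and 236 CPM in citrate, and the groups overlapped. The other 13, an alternative sum taken after seeing the data, came to 70.9, 56.1 and 64 CPM in tamoxifen and to 83.8 and 92.4 CPM in citrate. That sum was lower in each tamoxifen library, but it leaves out 3 genes with estimates above 0. The part that neuron content plays in the results on peptide genes was not tested. Of 9 tested, 0 passed by limma, and 1 as lower by edgeR (against 5.12% of all genes) and by DESeq2 (against 9.37%). At an unadjusted p below 0.05, 2 were lower and 1 higher (14.9% and 29.7% of all genes). The median log2 fold change was -0.10, and 7 of the 9 lay below the median of all genes. *maco-1* had 66.6, 71.0 and 70.7 CPM in tamoxifen and 30.2 and 58.6 CPM in citrate (log2 fold change 0.71, adjusted p = 0.102 by limma). *unc-64*, the syntaxin gene, had 11.7, 7.21 and 5.61 CPM in tamoxifen and 15.6 and 15.2 CPM in citrate (log2 fold change -0.89, adjusted p = 0.0756 by limma), and *ric-4* had a log2 fold change of -0.67. In these genes the groups did not overlap. *rab-3* had 15.1, 8.99 and 14.6 CPM in tamoxifen and 11.8 and 19.8 CPM in citrate, and *unc-119* had 7.40, 7.16 and 12.9 CPM in tamoxifen and 5.56 and 7.98 CPM in citrate. *rgef-1*, another neuron-wide marker, was low, with 2.85, 1.49 and 1.68 CPM in tamoxifen and 7.68 and 6.90 CPM in citrate (log2 fold change -1.49, adjusted p = 0.0211 by limma). Its tamoxifen libraries were all below 5 CPM, so *rgef-1* was tested through its citrate values alone. The other 7 neuron markers were below the level tested, and of these *snt-1*, *unc-104* and *sng-1* were lower in each tamoxifen library than in either citrate library. Markers of other tissues were lower in part. The 10 intestinal markers summed to 3173 to 4084 CPM in tamoxifen and to 6492 and 3997 CPM in citrate, with *act-5* of 10 tested past the threshold, lower (10%, against 2.76% of all genes). The 10 muscle markers summed to 2891 to 3594 CPM in tamoxifen and to 5865 and 4946 CPM in citrate. Of 8 tested, 0 passed the threshold by limma, and 3 were lower by edgeR (against 5.12% of all genes) and by DESeq2 (against 9.37%). At an unadjusted p under 0.05, 6 of the 8 were lower (against 14.9% of all genes). The 8 sperm markers summed to 303, 173 and 157 CPM in tamoxifen and to 408 and 492 CPM in citrate. Of 6 tested, 0 passed by limma, 1 was lower by edgeR (against 5.12% of all genes) and 5 by DESeq2 (against 9.37%). All 6 were lower at an unadjusted p below 0.05 (against 14.9% of all genes). All 6 also had each tamoxifen value below both controls (against 20.8%), with a median log2 fold change of -1.14. Glia markers were at 1.42 to 3.37 CPM in tamoxifen and 4.66 and 3.45 CPM in citrate, with 0 of 4 tested.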

How the data were processed

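Cel-seq2 libraries of whole N2 animals (3 on tamoxifen, 2 on citrate) were taken as labelled. The design text speaks of triplicates, while the study's methods state 2 to 3 biological replicates. The authors deposited 1 table, named as TPM, whose values are CPM and came out as whole tags in every value (within 0.01), and per the labels used Trimmomatic 0.32 and STAR. The genome build, the annotation, strand and the use of molecular identifiers are not given in the sources used here. Positions are from the Ensembl annotation of WBcel235. Genes reaching 5 CPM in at least 2 libraries were tested by limma 3.58.1 (trend, no replicate block) on log2(CPM + 1) with Benjamini-Hochberg adjustment, and called at an adjusted p under 0.01 and over 2-fold. edgeR 4.0.16 and DESeq2 1.42.0 on recovered tags, other pseudocounts, filters and scalings, a replicate block and leaving out each library were alternatives. Scripts were tested on simulated data. The genes and lists were chosen with earlier results of these data known. Genes were named if past the threshold, if over 2-fold with or without passing, or if among the 3 most abundant of their family, together with *nlp-24* to *nlp-34*, *pdf-1*, *pdf-2*, *daf-7*, *daf-28* and *ntc-1*. The naming rule also covered *egl-3*, *egl-21*, *sbt-1*, *unc-31* and *ida-1*, and in each other list the genes past the threshold. Others named were chosen after their values were seen. Floors for 0 tags (3 tags) cover counting error only. Where a p-value is given it measures the spread between these libraries, which the study describes as biological replicates and to which technical differences may add.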

Additional observations from a re-analysis of the deposited data

How the results depend on the processing

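The count of 6 peptide genes lower in tamoxifen became 27 with DESeq2, 16 with edgeR, 16 after quantile normalization and 19 at an adjusted p under 0.05, at which 1 gene (*nlp-31*) was higher. It was 0 with no filter and 0 with no trend in limma's variance. Median-of-ratios scaling gave 8, and the count was 4 and 9 with pseudocounts of 0.1 and 5, and 5 with a filter of 20 CPM. Requiring 5 CPM in a library of each group, an alternative chosen after seeing the data, gave 5. Leaving out 1 library at a time gave 0 to 8 lower and 0 higher. With 1 citrate library left, that library was assumed to vary like the tamoxifen libraries. With the replicate number as a block the count was 28. Deviations of same-numbered libraries correlated at 0.123 and 0.323, over 2 pairs that share only a number. The cause of these differences was not tested.

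Among the tested peptide genes that the naming rule chose, the sign turned in 5, all with estimates between -0.18 and 0.19. For *nlp-25* (0.12) the log2 fold change was -0.57 with DESeq2, -0.59 with edgeR, -0.058 after median-of-ratios scaling, -0.12 after quantile normalization and -0.17 with the block. For *nlp-28* (0.06) it was -0.24 with DESeq2, -0.21 with edgeR, -0.13 after median-of-ratios scaling and -0.10 after quantile normalization. For *nlp-30* (0.19) it was -0.40 with DESeq2, -0.47 with edgeR and -0.19 with the block. Leaving out 1 library gave -1.19 to 1.43 for *nlp-25*, -0.22 to 0.33 for *nlp-28*, -0.74 to 0.37 for *nlp-29*, -0.80 to 1.17 for *nlp-30* and -1.22 to 1.19 for *nlp-34*. In tamoxifen replicate 3, 16 of the 90 tested genes had under 10 tags, which limits the precision of the low genes.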
